A study of Mus musculus with 8 samples.

Results

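The fibroblast growth factor (FGF) ligands and receptors were followed in laser-captured mouse endometrium, by a fixed list of 10 genes out of the 52325 in the table. The list held the ligands *Fgf1*, *Fgf2*, *Fgf7*, *Fgf9*, *Fgf10* and *Fgf18*, the receptors *Fgfr1*, *Fgfr2* and *Fgfr3*, and *Fgfbp1*, whose product carries FGFs out of the matrix. The rule that named them used no expression value, but the list was chosen with earlier results of these data known. Of the 10 genes, 9 passed the filter on low counts and were tested, and *Fgfbp1* did not.

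Endometrium was cut by laser from frozen uterine sections of 4 wild-type (WT) females and 4 Thra1PV/+ females, all matched at metestrus, the stage of the estrous cycle that follows ovulation. In Thra1PV/+ mice 1 *Thra* allele has the PV mutation. *Thra* encodes thyroid hormone receptor alpha 1, and PV is a frame-shift mutation whose product cannot bind thyroid hormone and acts as a dominant negative on the normal receptor. The mutation is a germline knock-in, so every cell type of the endometrium carries it, and WT mice lack it. The labels give the tissue as uterus, and they give no age for these mice.

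FGFs are secreted signals that bind receptor tyrosine kinases together with heparan sulfate and pass the signal on through the FRS2 adaptor, RAS and the MAP kinases. In the uterus they carry messages between stroma and epithelium. FGF7 and FGF10 are made in mesenchyme and act on the epithelial splice form of FGFR2, and stromal HAND2, induced by progesterone, restrains FGF production and so the proliferation of the luminal epithelium.

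Promoter sequence is shown for the receptor and the carrier with the largest excess in Thra1PV/+ endometrium and for the ligand with the largest deficit. Each is the 250 bases before the RefSeq start in GRCm38.p6, 5′ to 3′ on the strand of the gene, with matches to the searched motifs in capitals. *Fgfr3* has 2 starts in the table and the first is shown, chr5:33721474-33721723 on the plus strand. *Fgfbp1* is shown at chr5:43981800-43982049 on the minus strand, and *Fgf7* at chr2:126034408-126034657 on the plus strand.
Fgfr3: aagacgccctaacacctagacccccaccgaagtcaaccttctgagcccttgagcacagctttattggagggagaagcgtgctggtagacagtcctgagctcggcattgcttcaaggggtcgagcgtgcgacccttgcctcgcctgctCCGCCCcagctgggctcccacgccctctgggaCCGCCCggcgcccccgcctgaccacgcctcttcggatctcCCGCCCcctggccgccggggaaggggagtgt
Fgfbp1: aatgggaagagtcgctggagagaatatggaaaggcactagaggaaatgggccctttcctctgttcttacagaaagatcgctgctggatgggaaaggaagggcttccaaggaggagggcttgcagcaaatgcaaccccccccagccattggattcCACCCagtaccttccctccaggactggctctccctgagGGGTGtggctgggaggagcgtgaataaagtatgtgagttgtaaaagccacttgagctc
Fgf7: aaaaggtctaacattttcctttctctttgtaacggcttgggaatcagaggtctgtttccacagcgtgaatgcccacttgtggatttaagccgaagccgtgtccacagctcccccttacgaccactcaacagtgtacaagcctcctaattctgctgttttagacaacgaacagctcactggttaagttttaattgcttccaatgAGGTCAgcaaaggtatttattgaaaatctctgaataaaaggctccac

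The motifs were the GC box GGGCGG, the CACCC box CACCC, the thyroid hormone response half-site AGGTCA and the AP-1 site TGANTCA, each read on both strands. The *Fgfr3* window held 3 GC boxes, the *Fgfbp1* window held 2 CACCC boxes and the *Fgf7* window held 1 AGGTCA. Among 32851 RefSeq promoter windows of this length, 32.7% held a GC box, 52.0% a CACCC box, 14.0% AGGTCA and 6.75% an AP-1 site. The windows of *Fgf2*, *Fgf10* and *Fgf18* each held at least 1 GC box and 1 CACCC box, and those of *Fgf9* and *Fgfr2* held no match. For *Fgfr2*, unlike the other windows, the sequence just after the RefSeq start was found in no GENCODE transcript of the gene, so this start is uncertain. *Fgf7* was the single member among those looked up with AGGTCA. *Fgf1* was not looked up, and *Fgfr1* had no window among the promoters.

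The libraries summed to between 48791602 and 59818887 estimated counts. They are bulk samples, so fewer cells of a type and less RNA per cell cannot be told apart. The epithelial and stromal content of the libraries varied within each genotype. The summed level of 14 stromal genes such as *Pdgfra*, *Pdgfrb* and *Vim* was 6841 to 7106 CPM (counts scaled to library size after TMM normalization) in Thra1PV/+ 1, WT 1 and WT 2, and 882 to 2625 CPM in the other 5 libraries. The summed level of 12 epithelial genes such as *Cdh1*, *Epcam* and *Esrp1* was 2450 to 3109 CPM in those 3 libraries and 4456 to 6522 CPM in the others. WT 1 also held 13143 CPM of 8 smooth muscle genes such as *Acta2*, *Actg2* and *Myh11*, where the remaining WT mice held 573 to 1146 CPM and the Thra1PV/+ mice 146 to 687 CPM, so the captured tissue of WT 1 carried muscle transcripts at a level the others did not. Markers of stratified squamous epithelium (*Krt5*, *Krt14*, *Krt15* and others, 16 listed and 15 tested) summed to 2966 to 4676 CPM in Thra1PV/+ and 15.7 to 90.4 CPM in WT libraries, and 10 of the 15 were called higher. *Thra* itself was at 45.8 to 127 CPM in Thra1PV/+ and 47.4 to 110.0 CPM in WT, and the mutant and normal transcripts cannot be told apart in gene counts.

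No tested FGF member met the call, a fold change of at least 2 with an adjusted p-value of at most 0.1 by edgeR's quasi-likelihood test. The count was 0 of 9, where 0.990% of the 18174 tested genes were called (0.924% higher and 0.0660% lower in Thra1PV/+). By the same edgeR test the count at an unadjusted p-value under 0.05 was also 0 of 9, against 9.77% of all tested genes (5.05% higher and 4.72% lower). Some alternative fits gave tested members an unadjusted p-value under 0.05. *Fgfr3* had 0.0462 by DESeq2, 0.00676 by voom with sample weights and 0.0223 with the replicate number as a block. *Fgf2* had 0.0431 by voom and 0.0363 with the block, and *Fgf18* 0.0366 by voom. Under that p-value lay 2644 of 29984 genes by DESeq2, 2276 of 18174 by voom and 1499 with the block. The adjusted p-values of these members were 0.192 or more. DESeq2, which also fitted *Fgfbp1*, called 0 members as well. It called 3.58% of the 22073 genes to which it gave an adjusted p-value (2.57% higher and 1.01% lower). The values of the 2 genotypes overlapped for all 9, while 6.04% of all tested genes showed no overlap. The spread between mice of the same genotype was wide, with a standard deviation of log2 CPM between 0.73 (*Fgfr1*) and 1.35 (*Fgf10*), at the 71.1 to 92.6 percentile of tested genes. The 95% intervals of the 9 log2 fold changes reached as far as -3.14 and 2.99, so a change of 2-fold lay within the error of every tested member at this number of mice.

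**Figure D1:**
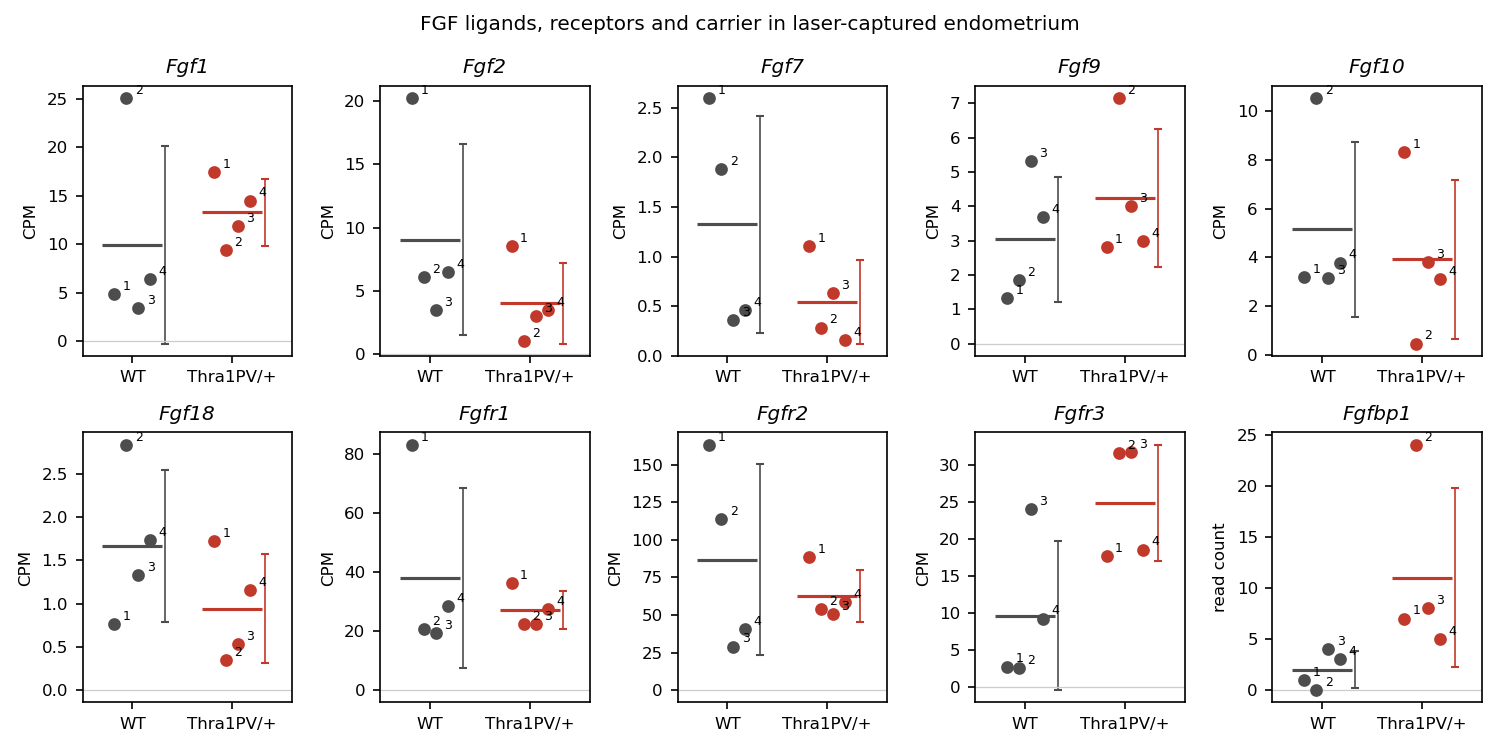
Levels of the 10 FGF genes in each library, in CPM after TMM normalization, and in read counts for *Fgfbp1*. Each point is 1 mouse with its replicate number, and the line and bar are the mean and SD of 4 mice. For *Fgfr3* the Thra1PV/+ mice sit between 17.7 and 31.8 CPM, above 3 of the 4 WT mice, and *Fgfbp1* is the panel in which the genotypes do not overlap.

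FGF1 binds all FGF receptors. *Fgf1* was at 17.5, 9.42, 11.9 and 14.5 CPM in Thra1PV/+ replicates 1 to 4 and at 4.83, 25, 3.36 and 6.36 CPM in WT replicates 1 to 4. All 4 Thra1PV/+ values lay above 3 of the WT values, and the highest value of all was WT 2. The log2 fold change of Thra1PV/+ over WT was 0.43 (SE 0.61, 95% interval -0.97 to 1.82, adjusted p = 0.880 by edgeR). With WT 2 left out it was 1.48, with an adjusted p of 0.166.

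FGF2, or basic FGF, is a mitogen for fibroblasts and endothelium. *Fgf2* was at 8.54, 1.06, 3.0 and 3.52 CPM in Thra1PV/+ and at 20.2, 6.10, 3.46 and 6.47 CPM in WT mice. The highest value of each genotype came from its replicate 1. Its log2 fold change was -1.17 (SE 0.72, adjusted p = 0.658). Leaving out WT 1, the library with the most smooth muscle transcripts and also stroma-rich, brought it to -0.37. The part of muscle or stroma in this value was not tested.

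FGF7, or keratinocyte growth factor, acts from stroma on epithelium. The gene lies at chr2:126034658-126091185 (GRCm38). *Fgf7* counted at only 60, 14, 31 and 9 reads in Thra1PV/+, or 1.10, 0.284, 0.633 and 0.158 CPM, and at 136, 104, 18 and 22 reads in WT, or 2.60, 1.88, 0.358 and 0.460 CPM. The 2 stroma-rich WT libraries were highest and the other WT libraries lay within the Thra1PV/+ values. This was the largest deficit among the ligands, at a log2 fold change of -1.28 (SE 0.81, 95% interval -3.14 to 0.59, adjusted p = 0.671). It ranged from -1.84 to -0.68 as single libraries were left out.

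FGF9 signals from epithelium to mesenchyme in several organs. *Fgf9* was at 2.81, 7.14, 4.0 and 2.98 CPM in Thra1PV/+ and at 1.34, 1.84, 5.31 and 3.68 CPM in WT mice. The lowest values were those of WT 1 and WT 2. Its log2 fold change was 0.48 (SE 0.51, adjusted p = 0.832). It was 0.10 without Thra1PV/+ 2 and 0.91 without WT 3.

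FGF10 directs budding and growth of epithelium. *Fgf10* was at 8.32, 0.467, 3.8 and 3.12 CPM in Thra1PV/+ and at 3.19, 10.5, 3.14 and 3.79 CPM in WT mice. WT 2 stood well above the other WT mice, and Thra1PV/+ 2 was far below every other library. The log2 fold change was -0.39 (SE 0.76, adjusted p = 0.917). Leaving out WT 2 turned its direction to 0.24.

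FGF18 acts mainly through FGFR3 and the mesenchymal splice forms of the receptors. *Fgf18* was at 1.73, 0.345, 0.531 and 1.16 CPM in Thra1PV/+ and at 0.763, 2.83, 1.33 and 1.74 CPM in WT mice. WT 2 was highest and Thra1PV/+ 2 lowest, as for *Fgf10*. This gave a log2 fold change of -0.82 (SE 0.60, adjusted p = 0.720), and it ranged from -1.24 without Thra1PV/+ 1 to -0.42 without WT 2.

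FGFR1 is the main receptor of mesenchyme. *Fgfr1* was at 36.2, 22.3, 22.5 and 27.3 CPM in Thra1PV/+ and at 83.1, 20.7, 19.2 and 28.5 CPM in WT mice. Apart from WT 1, the 7 libraries lay within 19.2 to 36.2 CPM. The log2 fold change was -0.48 (SE 0.47, adjusted p = 0.807), and it turned to 0.29 without WT 1. The smooth muscle genes were also highest in WT 1, and their part in this value was not tested.

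FGFR2 binds FGF7 and FGF10 in its epithelial IIIb form and FGF2 and FGF9 in its IIIc form, and the deposited gene counts do not tell these forms apart. *Fgfr2* was at 88.4, 54.0, 50.9 and 58.4 CPM in Thra1PV/+ and at 163, 114, 29.0 and 40.6 CPM in WT mice. The WT mice fell on both sides of all Thra1PV/+ mice, with the stroma-rich WT 1 and WT 2 on the high side. The log2 fold change was -0.46 (SE 0.52, adjusted p = 0.838), and without WT 1 it was 0.09.

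FGFR3 is a receptor of epithelium and cartilage. The gene lies at chr5:33721674-33737068 (GRCm38). *Fgfr3* was at 17.7, 31.7, 31.8 and 18.6 CPM in Thra1PV/+ and at 2.71, 2.53, 24.1 and 9.23 CPM in WT mice. The Thra1PV/+ values lay above WT 1, WT 2 and WT 4, and WT 3 fell between them. The means were 24.95 ± 7.85 CPM and 9.64 ± 10.1 CPM (SD, n = 4), and the log2 fold change of 1.37 (SE 0.71, 95% interval -0.24 to 2.99) was the largest excess of the tested members. The adjusted p by edgeR was 0.591, and the two-sided exact permutation test of mean log2 CPM gave p = 0.0857, where the smallest p it allows is 0.0286. Without WT 3 the log2 fold change was 2.39, with an adjusted p of 0.185.

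FGFBP1 releases FGFs that are held on matrix heparan sulfate, and it is abundant in squamous epithelia. The gene lies at chr5:43978858-43981779 (GRCm38). *Fgfbp1* counted at 7, 24, 8 and 5 reads in Thra1PV/+ and at 1, 0, 4 and 3 reads in WT endometrium. Each Thra1PV/+ library was above each WT library, and WT 1, WT 2 and WT 4 lay at or under the floor of 3 counts. Among all tested genes, 3.55% were higher without overlap. The ratio of the summed counts, 44 against 8, corrected for library size, was 5.40 (95% interval 2.51 to 13.3, for counting error only and not for the spread between mice). Thra1PV/+ 2 held 24 of the 44 counts, and without it the ratio was 3.21, while without WT 3 it was 8.16. When the filter was lowered to 1 count in any library, edgeR gave a log2 fold change of 2.40 (SE 0.98, adjusted p = 0.579), and DESeq2 gave 2.47 (SE 1.02, adjusted p = 0.227). The exact permutation test gave p = 0.0286, the smallest it can give. The squamous list was also higher in every Thra1PV/+ library than in every WT library, and its part in the *Fgfbp1* counts was not tested.

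**Figure D2:**
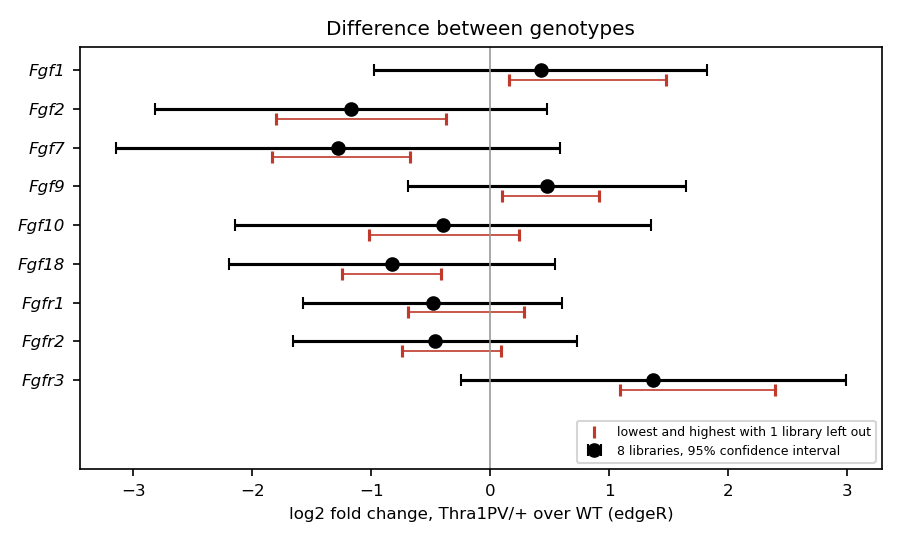
Log2 fold change of Thra1PV/+ over WT from edgeR for the 9 tested FGF members. Black points and bars are the estimate and 95% confidence interval over 8 libraries, and red bars span the estimates with 1 library left out. Every interval crosses 0, and the red bars of *Fgf10*, *Fgfr1* and *Fgfr2* cross it too.

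The 9 tested members followed the stromal or epithelial content of the libraries in different ways. Each member was set against the mean log2 CPM of the 14 stromal genes or the 12 epithelial genes of the same library, and the pooled spread within genotypes was compared with that of the plain log2 CPM. For *Fgf2* the standard deviation was 1.14 on its own, 0.56 against the stromal list and 1.69 against the epithelial list. That of *Fgf7* was 1.25 on its own and 0.77 against stroma, and that of *Fgf10* was 1.35 and 0.86. *Fgf2*, *Fgf7* and *Fgf10* thus varied less from mouse to mouse relative to stroma than on their own.

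*Fgf9* and *Fgfr3* went the other way. The spread of *Fgf9* was 0.77 on its own, 0.37 against the epithelial list and 1.78 against stroma. That of *Fgfr3* was 1.14 on its own, 0.68 against the epithelial list and 2.08 against stroma. By the pooled spread *Fgfr2* was closer to stroma, with 0.64 against the stromal list, 1.48 against the epithelial list and 0.88 alone. This rested on the WT mice, whose standard deviation was 0.32 against stroma and 1.90 against epithelium. In Thra1PV/+ mice the 2 lists gave *Fgfr2* nearly the same spread, 0.85 and 0.86. For *Fgf18* and *Fgfr1* both lists left a wider pooled spread than the plain value. By genotype, the spread of *Fgf18* against stroma was 0.43 in Thra1PV/+ and 1.21 in WT mice. In all, the spread was smaller for 5 of the 9 members against stroma and for 2 of the 9 against epithelium.

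**Figure D3:**
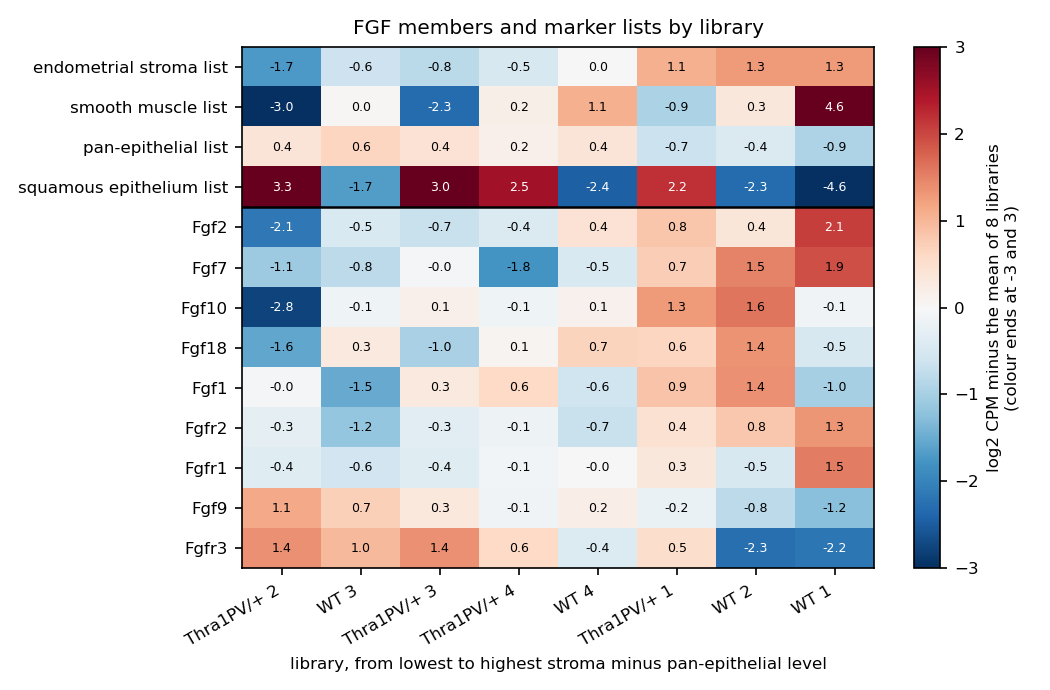
Log2 CPM of the 9 tested FGF members and the mean log2 CPM of 4 marker lists, each centred on its mean over the 8 libraries, with libraries ordered by stromal minus epithelial level. *Fgf2* and *Fgf7* are highest in the stroma-rich WT 1, while *Fgf9* and *Fgfr3* are lowest in WT 1 and WT 2 and high in Thra1PV/+ 2, the library with the least stroma.

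Set against the epithelial list, *Fgfr3* lay between -3.79 and -3.05 log2 units from the list in Thra1PV/+ and between -6.06 and -3.90 in WT mice. The ranges did not overlap, but the share of all tested genes without overlap on this scale was not computed. The difference was 1.77 log2 units (exact permutation p = 0.0286, the smallest possible, and 0.514 after Benjamini-Hochberg adjustment over the 18 comparisons made). *Fgf1* against stroma differed by 1.83 log2 units, with overlapping ranges of -3.95 to -2.05 in Thra1PV/+ and -6.00 to -3.65 in WT (exact permutation p = 0.0571, adjusted p = 0.514). None of the 18 comparisons passed after adjustment. For *Fgf2*, *Fgf7*, *Fgf10* and *Fgf18* the differences against stroma were -0.23, -0.12, 0.22 and 0.07 log2 units, and those of *Fgf7*, *Fgf10* and *Fgf18* changed sign when single libraries were left out. They are on a scale of mean log2 CPM and not of the fitted log2 fold changes given above.

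Levels of different genes were compared per length, in the deposited TPM, which divides by transcript length. *Fgfr2* had the highest mean TPM of the 10 genes in both genotypes, at 31.9 ± 9.30 TPM in Thra1PV/+ and 43.6 ± 32.8 TPM in WT mice (SD, n = 4), and it exceeded *Fgfr1* in all 8 libraries. *Fgfr1* followed at 9.94 ± 1.86 and 14.2 ± 11.2 TPM, then *Fgfr3* at 8.01 ± 2.99 and 3.63 ± 3.93 TPM. In Thra1PV/+ mice *Fgfr1* and *Fgfr3* did not differ beyond their spread, since each was the higher in 2 of 4 libraries.

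*Fgf1* had the highest mean TPM of the ligands, at 4.05 ± 0.83 TPM in Thra1PV/+ and 3.01 ± 2.95 TPM in WT mice. In TPM it was the highest ligand in 3 of 4 Thra1PV/+ libraries and in 1 of 4 WT libraries, WT 2. Without WT 2 its WT mean was 1.55 TPM, below *Fgf9*, *Fgf2* and *Fgf18*. In Thra1PV/+ mice *Fgf9* followed at 2.38 ± 1.10 TPM, then *Fgf10*, *Fgf18* and *Fgf2* at 1.18, 1.03 and 0.862 TPM, neighbours whose ranges overlapped. In WT mice *Fgf18*, *Fgf2*, *Fgf9* and *Fgf10* lay between 1.69 and 2.11 TPM and their ranges overlapped as well. *Fgf7* was the lowest ligand in mean TPM, at 0.306 TPM in Thra1PV/+ and 0.671 TPM in WT, and *Fgfbp1* was at 0.225 and 0.0440 TPM.

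The makeup of the receptors was led by *Fgfr2*, with 57.0 to 71.9% of the summed TPM of *Fgfr1* to *Fgfr4* in Thra1PV/+ and 45.1 to 87.5% in WT. *Fgfr1* held 18.5 to 22.7% in Thra1PV/+ and 11.1 to 31.5% in WT. *Fgfr3* held 7.78, 22.5, 23.8 and 13.2% in Thra1PV/+ replicates 1 to 4 and 0.721, 1.19, 29.2 and 10.9% in WT replicates 1 to 4. *Fgfr3* was thus nearly missing from the receptor total in the 2 stroma-rich WT libraries and held its largest share in WT 3. When CPM per annotated kilobase was used in place of TPM, the mean shares of Thra1PV/+ mice moved from 63.0 to 48.4% for *Fgfr2* and from 16.8 to 28.7% for *Fgfr3*. The order then changed, with *Fgfr3* above the 21.9% of *Fgfr1* in the Thra1PV/+ mean, and with *Fgfr3* at 41.4% and *Fgfr2* at 34.5% in WT 3, so the order given in TPM depends on that unit.

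Among the 6 ligands *Fgf1* held 37.8 to 49.4% of the summed TPM in Thra1PV/+ and 13.5 to 43.2% in WT. *Fgf2* ranged from 3.09 to 14.0% in Thra1PV/+ and from 7.77 to 43.1% in WT, with the top share in WT 1. *Fgf9* held 48.7% in Thra1PV/+ 2 and 4.94% in WT 2, its extremes. The top ligand also depends on the unit. By CPM per annotated kilobase *Fgf1* led in Thra1PV/+ 2, with 44.2% against 39.4% for *Fgf9*. In WT 4 *Fgf18* then led with 27.4%, where *Fgf9* had led in TPM with 24.6%. The shares are described without a test.

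**Figure D4:**
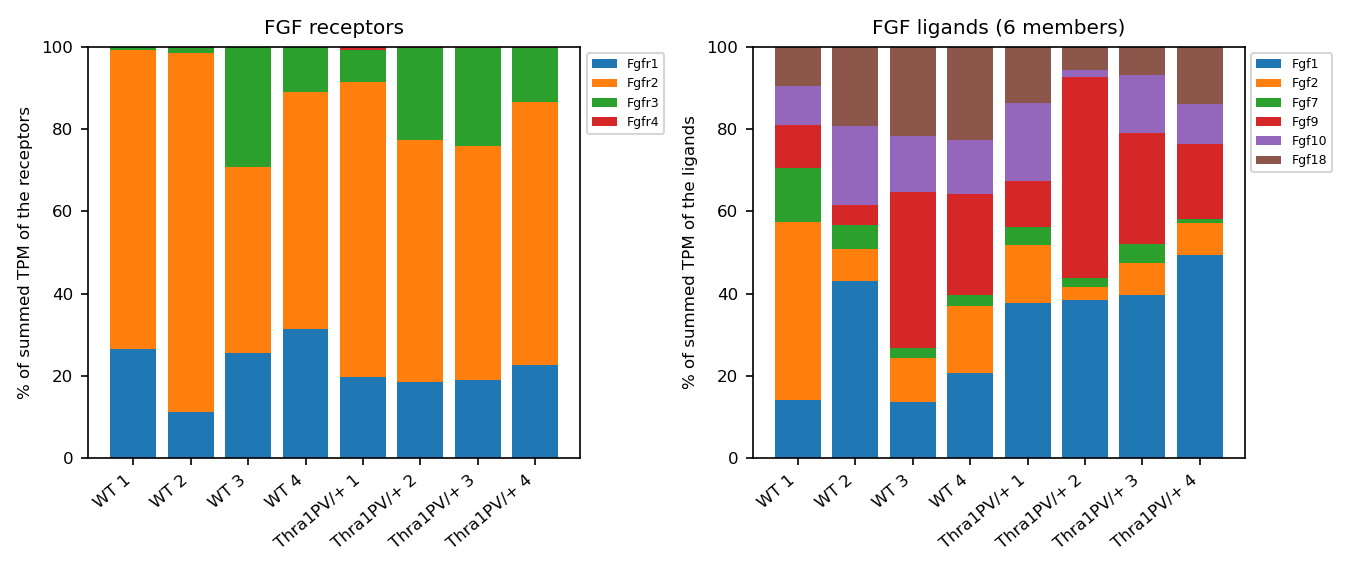
Share of each gene in the summed TPM of the 4 FGF receptors (left) and of the 6 FGF ligands (right), in percent, in each library. *Fgfr2* holds between 45.1 and 87.5% of the receptors in every library. *Fgf9* holds between 11.3 and 48.7% of the ligands in Thra1PV/+ and between 4.94 and 38.0% in WT.

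The genes whose pattern over the 8 libraries was most like that of *Fgfr3* were *Gda*, *Plekhg6*, *Cdkn2b* and *Tlr5*, by the root mean square difference of centred log2 CPM among 12131 genes. The differences were 0.24, 0.36, 0.38 and 0.40 log2 units. *Gda*, which encodes guanine deaminase, was at 84.8, 158, 124 and 69.0 CPM in Thra1PV/+ and 16.9, 13.3, 125 and 53.5 CPM in WT mice, low in WT 1 and WT 2 like *Fgfr3*. Those nearest to *Fgf7*, among 12132 genes, were *Mmp19*, *Heyl*, *Eda2r* and *Tmtc1*, at 0.45 to 0.47 log2 units. *Mmp19*, a matrix metalloproteinase, was highest in WT 1 at 58.8 CPM and lowest in Thra1PV/+ 2 at 4.71 CPM. The 8 libraries differed in depth and tissue content, and all genes were read in these same libraries, so likeness over them is a description.

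The wider pathway was read from 5 lists. Across them 66 of the 80 listed genes were tested, and 1 was called, where 0.990% of all tested genes were. The median log2 fold change over all tested genes was -0.05.

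Of the 16 other FGF ligands, 6 had no count in any library and 5 were tested, with 0 called and a median log2 fold change of 0.28. *Fgf16*, a relative of *Fgf9*, was at 1.87, 1.81, 1.0 and 1.80 CPM in Thra1PV/+ and 0.324, 0.542, 1.03 and 0.963 CPM in WT mice. The ranges overlapped only at Thra1PV/+ 3 and WT 3, and the log2 fold change was 1.18 (SE 0.44, unadjusted p = 0.0282, adjusted p = 0.435). *Fgf13* and *Fgf11*, members of the intracellular branch, had log2 fold changes of -0.96 and 0.28 with adjusted p of 0.653 and 0.794. The untested ligands reached at most 19 counts in a library.

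Of the 17 other receptors, coreceptors and binding proteins, 16 were tested and 1 was called, with a median log2 fold change of 0.07. The called gene was *Sdc1*, syndecan-1, a cell surface heparan sulfate proteoglycan that binds FGFs and is also known from squamous epithelium and plasma cells. *Sdc1* was at 347, 569, 480 and 334 CPM in Thra1PV/+ and at 130, 88.2, 120 and 231 CPM in WT mice. It was higher in every Thra1PV/+ mouse than in every WT mouse, at a log2 fold change of 1.6 (SE 0.32, adjusted p = 0.0944). The squamous list was higher in Thra1PV/+ without overlap as well, and so was the mean log2 CPM of 9 immune genes such as *Ptprc*, *Cd3e* and *Cd79a* (4.39 to 5.51 against 3.02 to 4.17), and their part in the *Sdc1* difference was not tested. The call held in 1 of 8 fits with 1 library left out, with adjusted p from 0.0511 to 0.284, and the log2 fold change stayed between 1.44 and 1.94.

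Of 11 genes that make or edit heparan sulfate, the cofactor of FGF binding, 10 were tested, 0 were called and the median log2 fold change was -0.00099. The smallest unadjusted p-values belonged to *Ndst2*, *Glce* and *Sulf1*, with log2 fold changes of 0.24, -0.43 and -0.70 and adjusted p of 0.674, 0.705 and 0.799. As single libraries were left out, *Sulf1* ranged from -1.65 without Thra1PV/+ 1 to -0.24 without WT 1, and *Glce* from -0.59 to -0.082. All 19 genes of signal transduction from the receptors were tested and 0 were called, with a median of -0.01. *Mapk3*, which encodes the kinase ERK1, was at 141 to 180 CPM in Thra1PV/+ and 182 to 239 CPM in WT, without overlap (log2 fold change -0.34, SE 0.15, adjusted p = 0.508). The adaptor *Frs2* was at -0.43 and the kinase *Braf* at -0.38 on the log2 scale, with adjusted p of 0.583 and 0.626.

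Of 17 feedback inhibitors and target genes, 16 were tested, 0 were called, and the median log2 fold change was -0.02. *Spry2*, a Sprouty protein that dampens receptor signaling, was at 29.99, 25.6, 25.8 and 28.9 CPM in Thra1PV/+ and at 36.2, 36.8, 46.8 and 39.6 CPM in WT mice. All Thra1PV/+ mice were below all WT mice, at a log2 fold change of -0.53 (SE 0.13, unadjusted p = 0.00308, adjusted p = 0.183), under the 2-fold size of a call. The adjusted p was 0.0313 by DESeq2 and 0.0667 by voom with sample weights, and it lay between 0.225 and 0.541 in edgeR fits with 1 library left out. *Spry4* was at 3.12 to 3.92 CPM against 4.03 to 6.49 CPM, also without overlap, at -0.59 (SE 0.26, adjusted p = 0.517). *Spred1*, a related inhibitor, was at -0.48 (SE 0.17, adjusted p = 0.388) with overlapping ranges. *Spry2* and *Spry4* were the 2 of 16 genes of this list, and *Mapk3* the 1 of 19 of the transduction list, that lay lower without overlap, where 2.49% of all tested genes did.

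**Figure D5:**
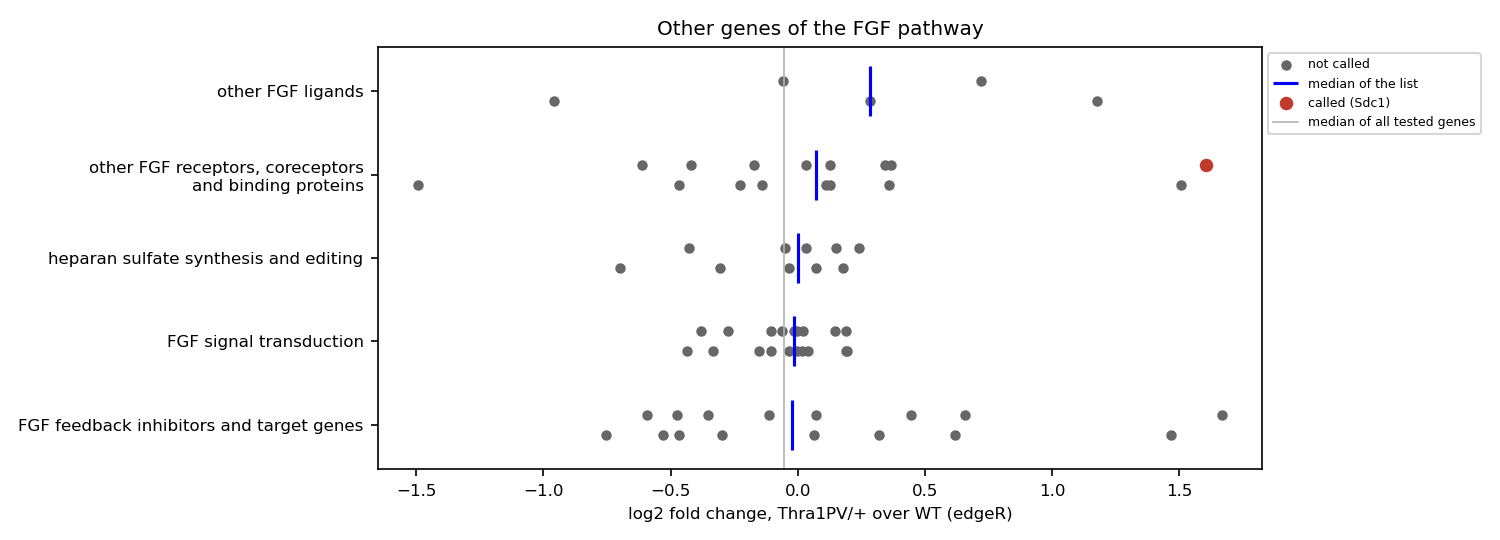
Log2 fold change of Thra1PV/+ over WT from edgeR for each tested gene of the 5 FGF pathway lists. Grey points were not called, the red point is the called *Sdc1* at 1.6, and blue lines are list medians, which lie between -0.02 and 0.28 beside -0.05 for all tested genes.

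*Hand2*, the stromal factor that restrains FGFs in the uterus, was named after its values were seen. It was at 105, 27.3, 31.9 and 41.8 CPM in Thra1PV/+ and at 70.7, 93.4, 17.0 and 31.6 CPM in WT mice. The high values were those of the 3 stroma-rich libraries. *Hand2* belongs to the stromal list that marked them, so this likeness is partly built in. The log2 fold change of *Hand2* was -0.05 (SE 0.60, adjusted p = 0.989).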

How the data were processed

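Per the paper's methods and the submitters' processing notes, the authors trimmed stranded paired-end reads with Trimmomatic and quantified them with salmon for mm10, and they deposited estimated counts per gene without normalization. The salmon version and the annotation are not given in the sources used here. They also deposited TPM values, whose sorted values differed by at most 0.291 TPM between libraries at any rank, the form that quantile normalization gives. That table has 1 further column, which was not used.

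Estimated counts were rounded to whole numbers. Genes were filtered with filterByExpr (minimum count 10, minimum total 15), normalized by TMM and tested with edgeR 4.0.16 in R 4.3.3, with genotype as the only term and Benjamini-Hochberg adjustment over 18174 genes. Log2 CPM used a prior count of 2. Alternatives used DESeq2 1.42.0 (also the authors' tool), limma 3.58.1 (voom with sample weights, and log2 of TPM plus 1 or 0.1), other normalizations and filters, and each library left out. The edgeR, DESeq2, voom and limma fits without a replicate block were first run on simulated data, with CPM in place of TPM for limma. The exact permutation test was checked on values with a known answer. The remaining tests were not checked in this way. The study gives 4 mice a genotype. If libraries of a genotype are not from separate mice, p-values measure only the spread between libraries. Intervals for counts cover counting error only.

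The members and the gene lists were chosen with earlier results of these data known. Named genes were all 10 members, up to 4 called genes of each pathway list or otherwise 3 with the smallest unadjusted p-values, up to 3 genes of each marker list used, and the 4 genes nearest to the ligand and the receptor with the largest log2 fold change, among genes whose log2 CPM averaged 2 or more. Positions are from GENCODE M21 (GRCm38), in which 49550 of 52325 identifiers have the same version, and promoters from RefSeq (GRCm38.p6), which gave windows for 8 members. Genes without a symbol held at most 0.00896% of counts.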

Additional observations from a re-analysis of the deposited data

Results flagged for a closer look

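*Fgf10* in WT mice had 1 library apart from the others of its genotype. WT 2 was at 3.40 log2 CPM, while the other 3 WT libraries lay between 1.67 and 1.94, and the gap to the nearest of them was 0.846 of the whole range, above the critical value of Dixon's test for 4 samples. Of 20 groups of 4 libraries examined in this way 1 was flagged, and chance alone flags about 1. WT 2 was also among the libraries with the highest stromal content, as was WT 1, whose *Fgf10* was at 1.69 log2 CPM. The part of that content in the WT 2 value was not tested.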

How the results depend on the processing

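No FGF member was called under any alternative in which it was fitted. *Fgfbp1* was fitted in 2 of the 10 alternatives that kept every library, and not with a library left out. *Fgf7* was fitted in 9 of the 10. Leaving out a library turned the direction of 3 members that were not called: over the fits with 1 library left out, *Fgf10* ranged from -1.02 to 0.24 (without WT 2), *Fgfr1* from -0.69 to 0.29 (without WT 1) and *Fgfr2* from -0.74 to 0.088 (without WT 1). *Fgf18* relative to stroma was at -0.071 log2 units when the median of the marker list replaced its mean. With 1 library left out, the differences against stroma ranged from -0.40 to 0.30 for *Fgf7*, from -0.21 to 0.61 for *Fgf10* and from -0.51 to 0.39 for *Fgf18*, and those against the epithelial list from -0.87 to 0.35 for *Fgfr1* and from -0.97 to 0.37 for *Fgfr2*. Each of these 5 changed sign without WT 1. The ratio of *Fgfbp1* counts and the order of the ligands with single libraries left out were added after the data were seen. The number of genes called among all those tested, 180, was 791 by DESeq2, 311 by voom with sample weights, 81 with at least 10 counts required in every library, 119 at an adjusted p of 0.05, and 81 to 167 with 1 library left out (81 without Thra1PV/+ 3, 114 without WT 4 and 116 without Thra1PV/+ 2). Calls were higher in Thra1PV/+ for 93.3% of the genes by edgeR and 71.8% by DESeq2. With the replicate number as a replicate block, 82 genes were called and no member. The labels do not say whether the numbers pair the mice. Same-numbered libraries had correlations of 0.27, -0.44, 0.34 and -0.16 in their deviations from the genotype means. These cannot settle it, since the stroma-rich Thra1PV/+ 1 and WT 2, with different numbers, had a correlation of 0.56. The 1 called gene of the pathway lists, *Sdc1*, was not called with at least 10 counts in every library, in the replicate block or at an adjusted p of 0.05, where the count was 0, and the count was 0 to 1 with 1 library left out. It was called in 8 of the 10 other fits. The causes of these changes were not tested. Depth bears most on *Fgfbp1*, with 0 to 24 reads a library, and on *Fgf7*, with as few as 9.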
